A study of Mus musculus with 24 samples.

Results

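The promoters of the cytosolic ribosomal protein genes were followed here in germinal center (GC) B cells of mice that lacked 1 allele of Crebbp, of Kmt2d, of both or of neither. Members were the protein-coding genes of the GENCODE mouse annotation named Rpl or Rps with digits and at most 1 final letter (a, l or x), together with Rplp0, Rplp1, Rplp2 and Rpsa, so that the rule itself used no measured value. This gave 80 genes, 49 of the large (60S) and 31 of the small (40S) subunit, on 19 chromosomes. A member peak was any accessible region of the deposited ATAC-seq consensus table within 1000 bp of a protein-coding transcription start site (TSS) of a member. Of the 65483 regions, 81 met this rule, and they belonged to 77 of the 80 genes. Peak coordinates are given in mm10.

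Every mouse carried Cg1Cre+/- (Cγ1-Cre, a recombinase expressed from an immunoglobulin heavy chain constant gene and active in B cells that enter the GC reaction). WT mice carried nothing else, C mice added Crebbp fl/+, K mice added Kmt2d fl/+ and CK mice added both floxed alleles, so that 1 copy of each targeted gene remained in GC B cells. Immunization was with sheep red blood cells (SRBC), spleens were taken after 10 days, and GC B cells were enriched and sorted before ATAC-seq, an assay in which the transposase Tn5 cuts open chromatin. There were 4 WT, 4 C, 4 K and 5 CK libraries, 1 per mouse, and the separate centroblast and centrocyte libraries (3 and 4) were not analysed here. Mice were described as C57BL/6J, female and 8 weeks old in the study's scheme of the same experiment, whereas 9 of the 17 libraries (2 WT, 2 C, 3 K and 2 CK) held Y chromosome fragments and the other 8 did not. The libraries held 17483706 to 21857738 fragments in peaks. All 11 GC B cell marker genes had a promoter peak, against 2 of 6 T cell markers (none at Cd3e, Cd3g, Cd4 or Cd8a) and 3 of 5 myeloid markers (none at Itgam or Lyz2). The summed promoter signal of 4 naive B cell markers ran from 70.9 to 78.2 CPM (counts scaled to the library's effective size) in WT, 58.6 to 64.4 in K and 60.5 to 64.6 in CK mice, while the 2 T cell markers with a peak summed to 133.7 to 149.8 in WT and 113.2 to 131.2 in CK mice, myeloid markers to 17 to 20.9 in WT and 21.1 to 23.4 in CK mice, plasma cell markers to 72.5 to 76.5 and 78.0 to 84.6, and GC B cell markers to 912 to 1011 and 828.7 to 923. In C mice naive B cell markers summed to 65.7 to 71.9 CPM, and plasma cell markers to 78.6 to 84.1, above all WT mice. The T cell, myeloid and GC B cell marker ranges of C mice overlapped with WT. In K mice the ranges of all these lists but the naive B cell markers overlapped with WT. The part of these shifts in the results below was not tested. The promoters of the targeted genes were accessible in all groups, with Crebbp at 38.3 to 42.7 CPM in WT and 43.2 to 46.7 CPM in CK mice and Kmt2d at 39.6 to 45.2 and 42.7 to 46.5 CPM. Neither peak lies in a place that would check the deletion.

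Ribosomal proteins are the structural partners of ribosomal RNA, and each subunit needs its set in equal amounts. Their mRNAs typically begin with a cytosine followed by a tract of pyrimidines, the 5′ terminal oligopyrimidine (TOP) motif through which mTOR signaling sets their translation, and their promoters are constitutively open in nearly all cell types. Crebbp is a histone acetyltransferase and Kmt2d a histone H3 lysine 4 methyltransferase, and both act mainly at enhancers. GC B cells divide rapidly and carry a high demand for ribosomes.

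Promoter windows of 6 members are shown because these genes had the highest or lowest WT accessibility of a main peak, or a low p among member peaks above or below 0 in CK against WT, whether or not they passed the test. Each runs from 200 bases before the TSS to the 15th base of the transcript (RefSeq, GRCm38.p6), and capitals mark matches to the searched motifs and the pyrimidine tract at the start. Positions are chr7:45128731-45128945 (minus strand) for Rpl13a, chr7:45717871-45718085 (plus strand) for Rpl18, chr16:55966075-55966289 (plus strand) for Rpl24, chr11:97782425-97782639 (minus strand) for Rpl23, chrX:37085208-37085422 (minus strand) for Rpl39 and chr14:18270972-18271186 (minus strand) for Rpl15.
Rpl13a: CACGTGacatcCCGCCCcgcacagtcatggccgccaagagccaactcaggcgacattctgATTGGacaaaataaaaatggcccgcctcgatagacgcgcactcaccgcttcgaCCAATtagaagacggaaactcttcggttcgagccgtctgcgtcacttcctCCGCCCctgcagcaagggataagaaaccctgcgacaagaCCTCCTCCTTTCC
Rpl18: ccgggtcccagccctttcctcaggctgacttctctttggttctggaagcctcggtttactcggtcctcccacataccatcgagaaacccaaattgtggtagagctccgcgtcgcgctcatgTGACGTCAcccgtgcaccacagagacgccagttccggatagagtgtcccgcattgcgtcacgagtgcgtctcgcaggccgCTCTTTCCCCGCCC
Rpl24: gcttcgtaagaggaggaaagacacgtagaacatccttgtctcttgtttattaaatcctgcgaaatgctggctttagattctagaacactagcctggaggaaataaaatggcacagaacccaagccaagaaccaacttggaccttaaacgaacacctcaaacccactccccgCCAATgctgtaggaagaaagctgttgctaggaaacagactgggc
Rpl23: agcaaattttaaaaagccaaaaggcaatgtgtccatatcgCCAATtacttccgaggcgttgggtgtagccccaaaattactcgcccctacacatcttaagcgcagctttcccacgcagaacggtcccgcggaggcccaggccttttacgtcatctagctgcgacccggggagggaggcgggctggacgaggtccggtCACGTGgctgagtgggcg
Rpl39: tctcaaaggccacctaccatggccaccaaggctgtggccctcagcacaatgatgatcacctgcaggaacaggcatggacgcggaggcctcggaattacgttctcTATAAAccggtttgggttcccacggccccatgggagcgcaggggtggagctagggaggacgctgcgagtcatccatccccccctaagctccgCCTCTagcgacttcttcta
Rpl15: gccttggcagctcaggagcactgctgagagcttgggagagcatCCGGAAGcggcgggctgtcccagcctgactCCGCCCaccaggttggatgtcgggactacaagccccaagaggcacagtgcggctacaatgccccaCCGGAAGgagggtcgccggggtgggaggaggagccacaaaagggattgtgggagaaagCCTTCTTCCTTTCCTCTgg
In Rpl13a, Rpl18, Rpl15 and Rpl39 the last capitals hold the tract at the start, which in Rpl18 runs into a GC box, while Rpl23 and Rpl24 had no such run. The printed Rpl15 window held 2 copies of the ETS core, that of Rpl18 the CRE, that of Rpl39 the TATA box, that of Rpl23 an E-box and an NF-Y box, and that of Rpl24 the NF-Y box alone. The Rpl18 window lies in the gene's second peak and not in its main peak. No window is printed for Rpl3 and Rps14, whose upstream peaks had the lowest p in CK against WT.

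Promoter windows were matched for 60 of the 80 members and for 16522 protein-coding genes in all, and each was read from 250 bases before to 50 bases after the TSS on both strands. The ETS core (CCGGAAG), bound by factors such as GABP, stood in 24 of 60 member windows (40%), in 12.4% of all coding windows and in 19.1% of those whose TSS lay in a peak. The GC box of SP and KLF factors (GGGCGG) stood in 35 member windows (58.3%), against 49.0% of all coding windows and 69.3% of those in a peak. The YY1 motif (AAGATGG) was found in 8 members (13.3%, all coding windows 6.43%), the NRF1 motif (GCGCATGC) in 3 (5.00%, 3.76%), the CRE (TGACGTCA) in 5 (8.33%, 2.44%) and the E-box (CACGTG) in 5 (8.33%, 8.20%). The NF-Y box (CCAAT) was found in 19 members (31.7%, 38.5%), the TATA box (TATAAA) in 5 (8.33%, 12.6%) and the octamer (ATTTGCAT) in none, against 1.67% of all coding windows. Where the TSS lay in a peak, shares were 7.26% (YY1), 5.73% (NRF1), 3.52% (CRE) and 10.6% (E-box). For the NF-Y box, TATA box and octamer they were 38.5%, 5.92% and 1.49%. The members' TATA share thus lay below all coding windows but above those in a peak. None of these motifs contains another, although matches may overlap, and 7 members held none of the 9. The 29 ETS matches in members had a median position of -62 relative to the TSS, and the 8 YY1 matches a median position of 7.

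A pyrimidine tract, taken as at least 5 C or T on the gene's strand reaching within 5 bases of the TSS, was found in 31 of 60 members (51.7%) and in 32.6% of all coding windows. Its length ran from 5 to 21 bases with a median of 9. The annotated first base was C in 18 members (30.0%), against 14% of all coding windows. Both values depend on where RefSeq sets the start, to the base. The 69 mitochondrial ribosomal protein genes, whose products build a different ribosome, held the ETS core in 34.8%, the tract in 42.0% and a first C in 15.9%. Median WT accessibility was 31.6 CPM per kb in 23 members with the ETS core and 25.3 in 34 without it, and 32.6 in 34 members with a GC box and 22 in 23 without, given as a description with no test.

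**Figure D1:**
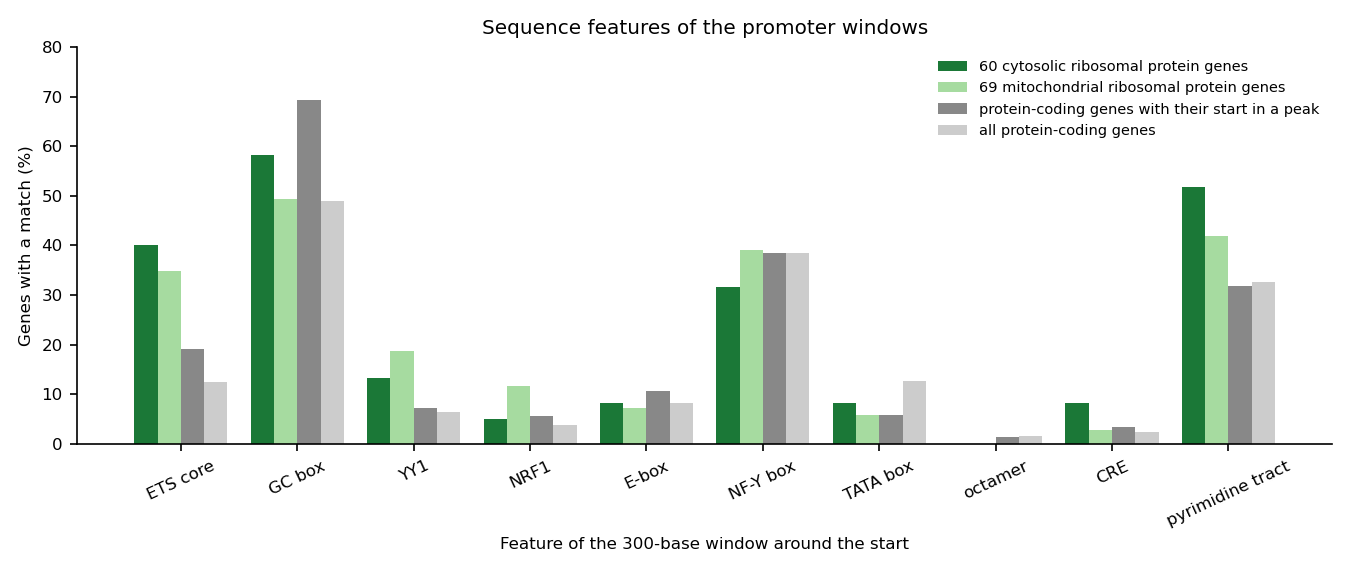
Share of promoter windows with a match to each sequence feature, in percent of genes, for 60 cytosolic and 69 mitochondrial ribosomal protein genes, for coding genes with their start in a peak and for all coding genes. The ETS core (40% against 12.4%) and the pyrimidine tract (51.7% against 32.6%) stood above all coding genes in the members, and the GC box (58.3%) lay below the 69.3% of genes with their start in a peak.

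Nearly every member was open in GC B cells. A peak lay within reach of 96.2% of members, compared with 62.2% of the 21951 protein-coding genes. The 3 members without a peak were Rpl10l, Rpl39l and Rpl3l, retained copies of Rpl10, Rpl39 and Rpl3 that are known for expression in testis (Rpl10l, Rpl39l) or striated muscle (Rpl3l). Rps27l, the remaining member ending in l, had a peak at chr9:66945290-66946747 with 53.2 CPM ± 1.49 (SD, n = 4) in WT mice. Of the 294 annotated ribosomal protein pseudogenes, which are mostly inserted mRNA copies without a promoter of their own, 18 (6.12%) had a peak within the same distance.

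The main peak of each member, defined as its most accessible peak in WT mice, covered a coding TSS in all 77 cases. Main peaks were 842 to 3040 bp long (median 1513 bp), with a median GC content of 54.8% and a median observed-to-expected CpG ratio of 0.749. All coding promoter peaks (13947) had medians of 1460 bp, 56.6% and 0.651, and all peaks had medians of 910 bp, 48.2% and 0.243. A TSS of another protein-coding gene lay within 1000 bp of 18 of the 81 member peaks (22.2%), compared with 9.89% of coding promoter peaks. Such neighbors included Sphk2 at Rpl18, Zc3h10 at Rpl41, Nkiras1 at Rpl15, Med22 at Rpl7a, Trappc4 at Rps25, Vps52 at Rps18, Ndufa7 at Rps28 and Lias at Rpl9, and ATAC-seq fragments there cannot be divided between the genes. No peak was shared by 2 members. Within the member genes lay 56 annotated small nucleolar RNA genes, in 29 members, and the main peaks of these hosts had a median WT level of 28.8 CPM per kb, against 28.1 in the others.

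The WT levels of the main peaks spanned an 8.13-fold range, from 9.29 to 75.6 CPM per kb of peak, with a median of 28.1. The median of all coding promoter peaks was 20.6 CPM per kb, with quartiles of 7.27 and 34.3, and that of all peaks was 4.83. Of the 77 main peaks, 62 lay above the coding promoter median and 24 above its upper quartile. The median was 27.6 for the 46 main peaks of the 60S and 29.2 for the 31 of the 40S. The mitochondrial ribosomal protein promoters had a median of 25.8 CPM per kb.

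Among the most accessible members were Rpl13a (chr7:45128484-45129506) at 75.6 ± 3.13 CPM per kb (SD, n = 4 WT mice), Rpl18 (chr7:45714821-45715662) at 60.6 ± 2.06 and Rpl27 (chr11:101441922-101443075) at 54.8 ± 1.2. Both Rpl18 peaks lie within 1000 bp of a start of Sphk2. The second Rpl18 peak, which holds the RefSeq start of the printed window, stood at 37.1 ± 2.22. Rpl13a, also known for a role outside the ribosome in interferon-dependent control of translation, was more open than 98.6% of coding promoter peaks. Among the lowest main peaks were Rpl24 (chr16:55964260-55967140) at 9.29 ± 0.747 and Rpl36 (chr17:56611994-56614675) at 14.6 ± 0.762 CPM per kb. Over all 81 member peaks, the upstream peaks of Rpl3 (10.4 ± 0.731) and Rps14 (10.8 ± 0.369) ranked just above Rpl24. In the order of all 81 levels, 10 of the 80 steps between neighbors exceeded the larger of the neighbors' SDs, so most neighbors in that order could not be separated.

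**Figure D2:**
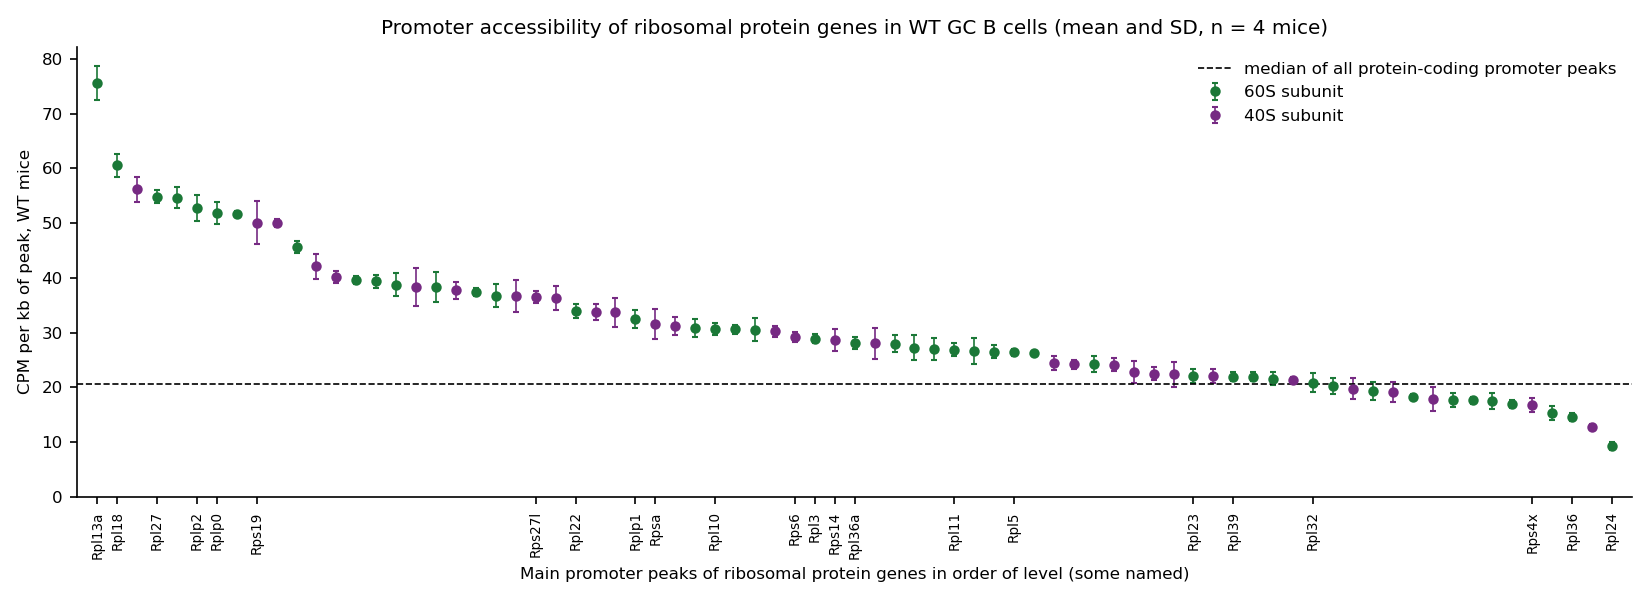
Accessibility of the main promoter peak of 77 ribosomal protein genes in WT GC B cells, in CPM per kb of peak (points, mean of 4 mice; bars, SD), colored by subunit, in order of level with some members named, and the median of all coding promoter peaks as a dashed line. Levels fell from 75.6 at Rpl13a to 9.29 at Rpl24, and 62 of 77 lay above the dashed line at 20.6.

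The stalk proteins of the 60S, which recruit translation factors, held WT levels of 51.8 ± 1.99 (Rplp0), 32.5 ± 1.69 (Rplp1) and 52.8 ± 2.36 CPM per kb (Rplp2), and Rpsa of the 40S held 31.6 ± 2.69. Rpl5 (26.3 ± 0.613) and Rpl11 (26.9 ± 1.24), which bind the 5S rRNA and restrain Mdm2, were close to the members' median. Rps19, mutated in Diamond-Blackfan anemia, stood at 50.1 ± 4.00, Rpl22, an RNA-binding protein with roles in lymphocyte development, at 33.9 ± 1.32 and Rps6, the substrate of the S6 kinases, at 29.2 ± 0.961 CPM per kb. The X-linked members were Rpl10 (30.6 ± 1.15), Rpl36a (28.1 ± 1.12), Rpl39 (21.9 ± 0.772) and Rps4x (16.7 ± 1.33). Over all 17 mice the coefficient of variation of the main peaks was 5.46% in the median, from 2.60% to 10.8%, and the median over coding promoter peaks was 7.50%. Counts behind these values ran from 317 to 3377 fragments per main peak and library.

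The first question of the design was what each genotype changed against WT. No main promoter of a ribosomal protein gene passed the test in C, K or CK mice in the fit of all 17 libraries. With edgeR's quasi-likelihood test and Benjamini-Hochberg adjustment over all 65483 peaks at 0.01, 0 of 81 member peaks were called in C, 0 in K and 1 in CK mice. Across all peaks 0.160% were called in C, 1.48% in K and 6.84% in CK mice, and among coding promoter peaks 0.122%, 2.01% and 10.5%. At an unadjusted p under 0.05 stood 3, 10 and 9 member peaks (3.70%, 12.3% and 11.1%), compared with 8.90%, 20.6% and 28.9% of all peaks and 8.59%, 26.6% and 35.4% of coding promoter peaks. DESeq2 called 0, 0 and 2 member peaks. All 77 main peaks had a 95% interval of the log2 fold change within a 1.25-fold change in either direction in each of the 3 comparisons. The same held for 73.7% (C), 64.3% (K) and 63.4% (CK) of coding promoter peaks, whose median SE in CK against WT was 0.063 compared with 0.053 for the main peaks. A lower share of cells with an open site and a less open site in every cell cannot be told apart in these bulk libraries.

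The median log2 fold change of the member peaks was -0.022 in C (24 of 81 above 0), 0.037 in K (58 of 81) and 0.030 in CK mice (56 of 81), each below the pooled SD of 0.069 of the per-mouse member median, which includes the difference between library numbers described below. Coding promoter peaks had medians of -0.013, 0.060 and 0.061. The sign of the members' medians depended on the scaling: in K and CK they turned to -0.0092 and -0.0016 when each library was centered within bins of GC content and to -0.023 and -0.033 when scaling factors came from coding promoters alone, while in C it turned to 0.0058 with total counts and 0.0038 with loess offsets. Under these 4 settings the promoters' own medians were 0.0093 and 0.0045 (GC bins, K and CK), -0.00051 and -0.0016 (promoter scaling) and 0.014 and 0.013 (C). The subunits had similar medians in CK against WT, 0.031 over 49 peaks of the 60S and 0.024 over 32 of the 40S.

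**Figure D3:**
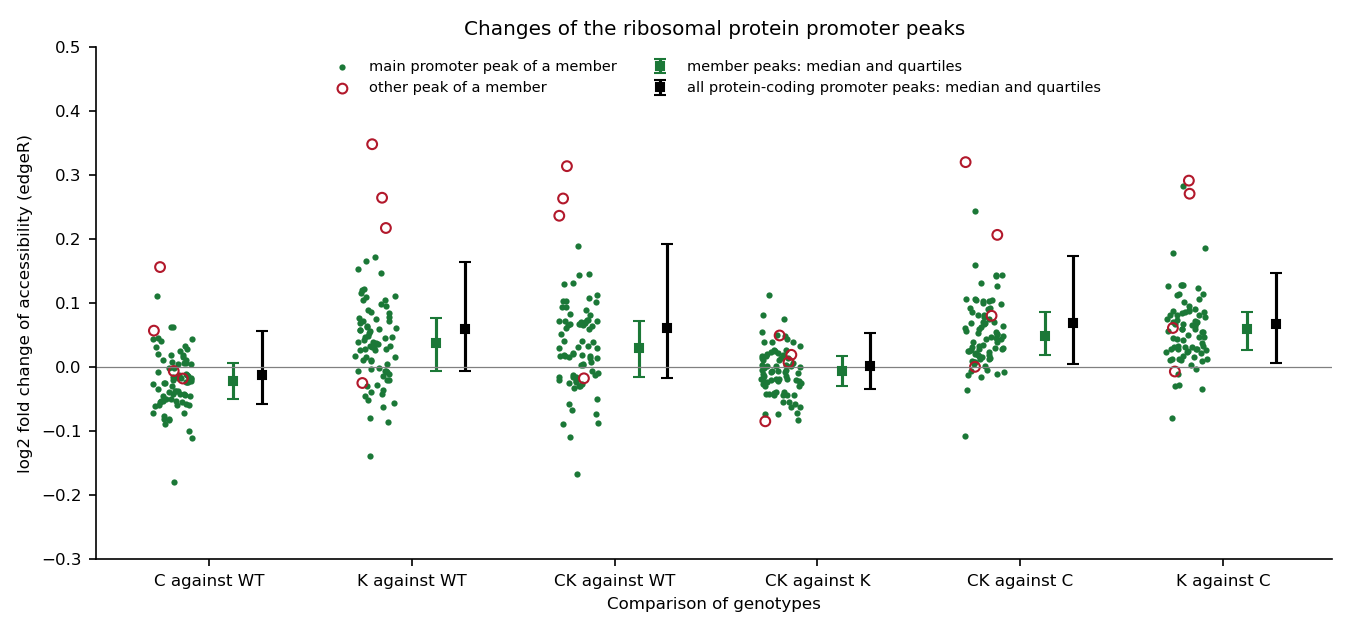
Log2 fold change of accessibility (edgeR) of 77 main and 4 other member peaks in 6 comparisons of genotypes, with the median and quartiles of the member peaks and of all coding promoter peaks. Main peaks lay between -0.168 and 0.189 in CK against WT around a median of 0.029. The points above 0.2 in that comparison were the upstream peaks of Rps14 and Rpl3 and the third Rpl3 peak.

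Summed over each mouse, the 81 member peaks took 0.363% to 0.388% of all fragments in WT, 0.368% to 0.387% in C, 0.372% to 0.394% in K and 0.375% to 0.397% in CK mice, and the ranges of the genotypes overlapped when library numbers were ignored. The mean log2 CPM of the main peaks was 5.48 ± 0.050 (SD, n = 4) in WT, 5.45 ± 0.037 (n = 4) in C, 5.51 ± 0.063 (n = 4) in K and 5.51 ± 0.048 (n = 5) in CK mice. Over all coding promoter peaks the same mean was 4.40 ± 0.038, 4.41 ± 0.018, 4.49 ± 0.044 and 4.51 ± 0.024. The members therefore stood 1.07, 1.10, 1.07 and 1.07 log2 units above coding promoters in the WT mice, 1.04, 1.07, 1.02 and 1.03 in C mice, 1.03, 1.06, 1.02 and 0.997 in K mice, and 1.01, 1.05, 0.974, 0.970 and 0.968 in the 5 CK mice. No K or CK value reached the lowest WT value, and C mice overlapped with WT. In CK against WT, the medians of mitochondrial ribosomal protein, other TOP and ribosome biogenesis promoters were 0.0040, 0.020 and 0.039. These also lay below the 0.061 of coding promoters, so a smaller change was not particular to the members. Over the main peaks the CK change had a Pearson r of -0.261 with the log2 WT level per kb. The part of level in the score was not tested. The members' median log2 fold change was also below that of coding promoters in 13 of 13 alternative fits in each of C, K and CK against WT, and these comparisons share the WT mice. Those fits reuse the same libraries, and new scaling factors alone move both medians together, so the 13 fits are not independent of each other. No test was made of the score of members minus promoters, since it is a sum over chosen members.

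In each genotype the libraries numbered 1 and 2 by the labels had a higher share of fragments in member peaks than those numbered 3 and above (0.376% to 0.388% against 0.363% to 0.374% in WT, 0.390% to 0.397% against 0.375% to 0.380% in CK), and the labels do not say what the numbers stand for. The share in all coding promoter peaks was likewise higher in WT (55.7% to 56.0% against 54.0% to 54.3%). It was also higher in C (55.5% to 55.6% against 54.0% to 54.4%) and K mice (57.6% to 58.1% against 55.4% to 55.5%). In CK mice these ranges overlapped (56.5% to 57.7% and 56.1% to 56.9%). Among libraries numbered 1 and 2, the mean log2 CPM of the main peaks with TMM factors was 5.500 to 5.535 in WT, 5.560 to 5.572 in K and 5.550 to 5.564 in CK mice. Among the others it was 5.431 to 5.438 in WT, 5.449 to 5.466 in K and 5.462 to 5.476 in CK mice. Within each set of numbers all K and CK values therefore exceeded the WT values, although the median change of members turned below 0 with promoter scaling or GC bins. The C values were 5.467 to 5.495 for numbers 1 and 2, below WT, and 5.409 to 5.440 for the others. Over all coding promoter peaks the mean was 4.359 to 4.433 in WT, 4.450 to 4.543 in K and 4.488 to 4.552 in CK mice. All K and CK values there exceeded WT even with numbers ignored, so this order was not particular to the members. Within the libraries numbered 1 and 2, the members' median was -0.030 (C), 0.030 (K) and 0.041 (CK) against WT, with 0 calls in each. Within the others it was -0.00048, 0.032 and 0.037, again with 0 calls. Coding promoter peaks had medians of -0.020, 0.065 and 0.043 in the first of these fits and 0.0070, 0.051 and 0.075 in the second. Both fits held fewer mice per genotype. The share of all peaks called in them is not reported here, so the 0 calls do not set the members apart.

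**Figure D4:**
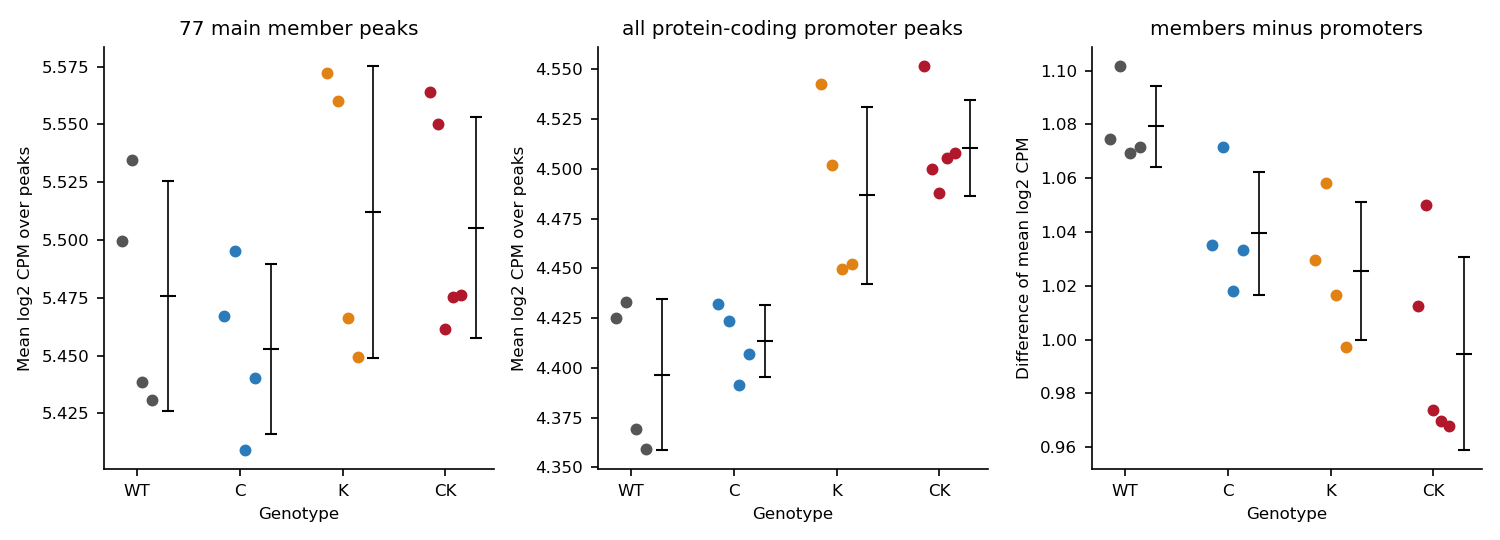
Mean log2 CPM of the 77 main member peaks, of all coding promoter peaks and their difference in each mouse (points), with the mean and SD of each genotype in black. The difference fell from 1.08 ± 0.015 in WT to 0.995 ± 0.036 in CK mice, and the axes do not start at 0.

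The call in CK mice was not at a main promoter. It was an upstream peak of Rps14 (chr18:60746789-60748992), a region of 64.2% GC at an annotated upstream start of this 40S protein gene, which also lies at a start of Ndst1, a heparan sulfate modifying enzyme. Its CPM values were 22.8, 24.8, 23.6 and 23.6 in the WT mice, 27.7, 25, 26.6 and 26.4 in C mice, 28.3, 29.4, 25.9 and 26.8 in K mice, and 29.1, 27.8, 25.9, 27.7 and 29.2 in the 5 CK mice. All mutant mice of every genotype lay above all WT mice. The log2 fold change was 0.24 ± 0.058 (SE) in CK against WT (edgeR, adjusted p = 0.0068), 0.22 ± 0.061 in K (adjusted p = 0.035) and 0.16 ± 0.061 in C (adjusted p = 0.41). This call was lost with GC content bins, where the change was 0.042 (adjusted p = 0.67), with promoter scaling (adjusted p = 0.025), in the fit of CK and WT alone (adjusted p = 0.016) and in 7 of 17 fits that left out 1 mouse. The main Rps14 peak downstream (chr18:60773980-60775753) had a change of 0.005 ± 0.047 in CK mice, with an interval from -0.091 to 0.10. Among gained peaks the background was 3.54% of all peaks in CK against WT, compared with 1 of 81 member peaks.

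The next lowest p, which did not pass the threshold, was at an upstream peak of Rpl3 (chr15:80090631-80091816, 60.8% GC), near the gene's most upstream annotated start, which also lies at a start of Syngr1, a synaptic vesicle protein gene. It held 13.2, 12.8, 11.2 and 12.1 CPM in WT, 14.1, 12.2, 10.7 and 12.2 in C mice, 16.5, 15.3, 14.4 and 13.2 in K mice, and 13.8, 16.6, 15.4, 15.9 and 14.9 in the 5 CK mice. CK mice lay above all WT mice, and C mice overlapped with WT. Its change was 0.31 ± 0.089 in CK against WT (adjusted p = 0.018), 0.26 ± 0.094 in K (adjusted p = 0.098) and -0.0063 in C. DESeq2 gave it an adjusted p of 0.0095 in CK. The main Rpl3 peak (chr15:80082733-80084142), at the start of this core 60S protein, had values of the opposite sign, -0.11 ± 0.057 in CK (adjusted p = 0.21) and -0.086 ± 0.060 in K mice (adjusted p = 0.45). The third Rpl3 peak, 339 bp long and with 6.58 ± 1.93 CPM (SD, n = 4) in WT mice, had a change of 0.26 ± 0.14 in CK (adjusted p = 0.23). The second Rpl18 peak (chr7:45717626-45718589) had a change of -0.018 ± 0.059 in CK (adjusted p = 0.88).

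Among main peaks, Rpl23 and Rpl39 had the lowest p in CK mice. Rpl23, a 60S protein (chr11:97781533-97783036), held 34.9, 34.6, 32.3 and 30.8 CPM in WT, 35.4, 38.3, 31.4 and 33.3 in C mice, 36.5, 36.4, 33.7 and 33.5 in K mice, and 38.5, 37.9, 36.5, 36.7 and 39.6 in the 5 CK mice. All CK mice lay above all WT mice, with a change of 0.19 ± 0.058 (adjusted p = 0.027). Rpl39, a short 60S protein at the peptide exit tunnel (chrX:37084511-37086029), held 33.1, 34.3, 31.8 and 34.2 CPM in WT, 31.3, 34.1, 31.3 and 31.2 in C mice, 31.2, 32.2, 29.2 and 28.6 in K mice, and 31.3, 29.8, 28.8, 28.7 and 29.7 in the 5 CK mice. The highest CK value was below the lowest WT value, with a change of -0.17 ± 0.053 (adjusted p = 0.032) and, in a fit with a term for Y chromosome signal, of -0.17 ± 0.055 (adjusted p = 0.035). Neither passed the threshold of 0.01, but Rpl23 did with a term for libraries numbered 1 and 2 (0.20, adjusted p = 0.0039), and not with promoter scaling (0.13, adjusted p = 0.076). Next in order among values below 0 in CK were Rpl15 (-0.088 ± 0.043, adjusted p = 0.18) and Rpl13a (-0.074 ± 0.038, adjusted p = 0.21), and both passed with promoter scaling (-0.15 and -0.14, adjusted p = 0.0073 and 0.0085), as did Rpl39 (-0.23, adjusted p = 0.0016). Rpl13a also passed with GC bins (-0.17, adjusted p = 0.0026).

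**Figure D5:**
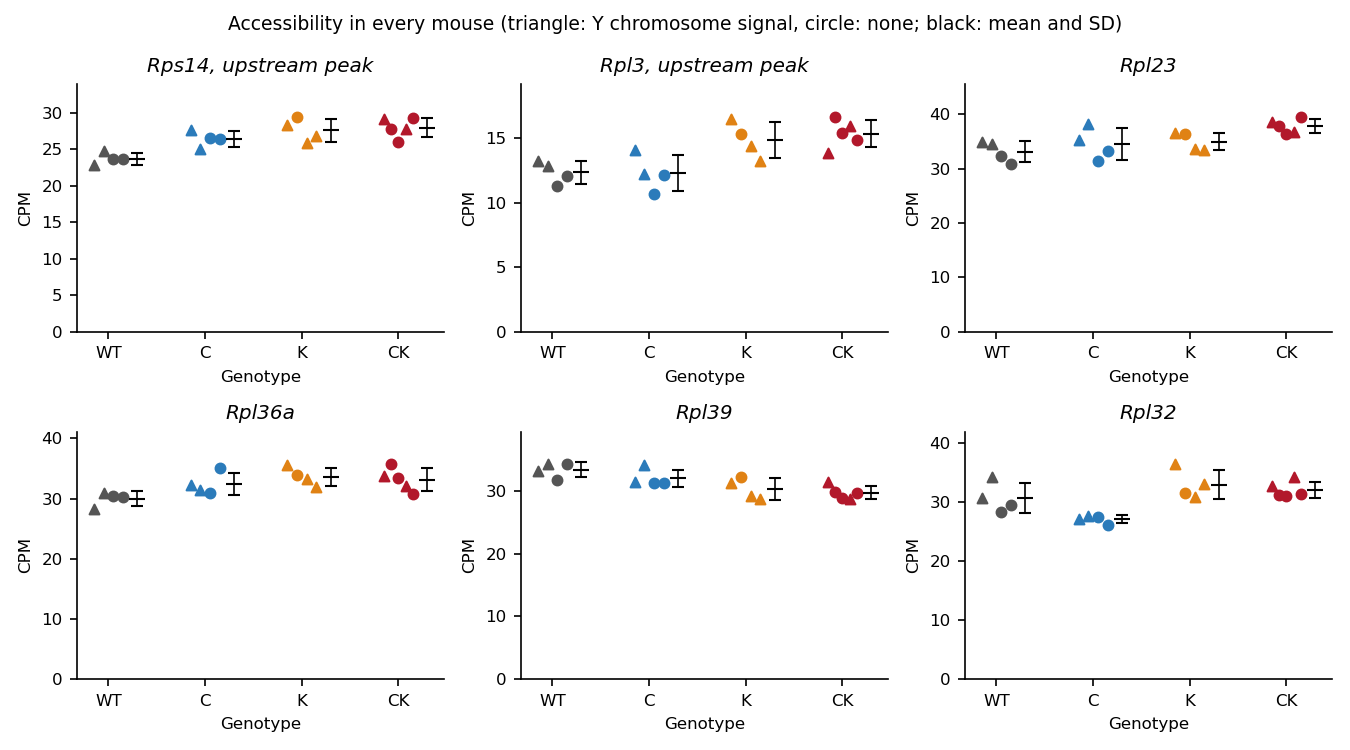
CPM of 6 member peaks in every mouse by genotype (triangles, libraries with Y chromosome signal; circles, without), with the mean and SD in black and axes from 0. All 5 CK mice lay above the WT mice at the upstream Rps14 and Rpl3 peaks and Rpl23 and below them at Rpl39, while all 4 C mice lay below the WT, K and CK mice at Rpl32.

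In K mice the values farthest above 0 by p, after the upstream Rps14 peak, were Rpl36a (0.17 ± 0.059, adjusted p = 0.097) and the upstream Rpl3 peak, and those below 0 were Rpl39 (-0.14 ± 0.056, adjusted p = 0.15), Rpl15 (-0.080 ± 0.045, adjusted p = 0.33) and Rpl3. Rpl36a, an X-linked 60S protein (chrX:134585253-134586318), held 28.3, 31.0, 30.5 and 30.3 CPM in WT, 32.3, 31.4, 30.9 and 35.0 in C mice, 35.6, 33.9, 33.3 and 31.9 in K mice, and 33.8, 35.8, 33.4, 32.1 and 30.8 in the 5 CK mice, with K mice above all WT mice and the others overlapping. In C mice the values with the lowest p were Rpl32 (-0.18 ± 0.064, adjusted p = 0.35), Rps29 (-0.10 ± 0.042, adjusted p = 0.47) and Rpl15 (-0.083 ± 0.045, adjusted p = 0.62) below 0, and the upstream Rps14 peak, Rpl36a (0.11 ± 0.059, adjusted p = 0.61) and Rpl23 (0.062 ± 0.061, adjusted p = 0.83) above 0.

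Counting peaks at which every mutant mouse lay on 1 side of every WT mouse gave 3 member peaks in C (1 above, 2 below), 4 in K (3 above, 1 below) and 5 in CK mice (4 above, 1 below). Across all peaks 5.66%, 11.3% and 13% did so, and across coding promoter peaks 6.45%, 13.5% and 17.1%, compared with 3.70%, 4.94% and 6.17% of member peaks. In C mice these were the upstream Rps14 peak above and Rpl32 and Rpl41 below, and in K mice the upstream Rps14 peak, Rpl36a and Rpl23a above and Rpl15 below, where Rpl41 was named after its values were seen. In CK mice these were the upstream Rps14 and Rpl3 peaks, Rpl23 and Rps6 above and Rpl39 below, with Rps6 at 0.10 ± 0.045 (adjusted p = 0.13).

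The stalk proteins and other members named by role gave small values in CK against WT. Rplp0 stood at 0.017 ± 0.044, Rplp1 at 0.065 ± 0.048, Rplp2 at 0.052 ± 0.048 and Rpsa at 0.093 ± 0.053, with adjusted p from 0.25 to 0.84. Rpl5 stood at 0.081 ± 0.053, Rpl11 at 0.067 ± 0.051, Rps19 at 0.041 ± 0.062 and Rpl22 at 0.030 ± 0.047, with adjusted p from 0.33 to 0.73. On X, Rpl10 (0.0038 ± 0.047) and Rps4x (0.070 ± 0.071) had intervals that included 0, and Rps27l stood at -0.022 ± 0.053.

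The second question was how the mutant genotypes differ from each other. Between CK and K, 0 of 81 member peaks were called and 0 had an unadjusted p under 0.05. Of all peaks 0.00916% were called. An unadjusted p under 0.05 was found for 7.35% of all peaks and 6.43% of coding promoter peaks. The values with the lowest p were Rpl23 (0.11 ± 0.057), Rps10 (0.081 ± 0.057) and Rps4x (0.076 ± 0.071) above 0 and Rpl13a (-0.062 ± 0.038), Rpl23a (-0.074 ± 0.050) and Rpl30 (-0.062 ± 0.043) below 0, with adjusted p from 0.71 to 0.89. All 77 main peaks had 95% intervals within a 1.25-fold change. Between CK and C, 0 member peaks were called by edgeR (9 at an unadjusted p under 0.05, or 11.1% against 21.2% of all peaks) and 1 by DESeq2, where 1.68% of all peaks were called. Between K and C, 0 were called by edgeR (12 at an unadjusted p under 0.05, or 14.8% against 17.9% of all peaks) and 1 by DESeq2, where 0.788% of all peaks were called. The intervals lay within a 1.25-fold change for 76 of 77 main peaks in each of the last 2 comparisons.

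Against C, the median log2 fold change of member peaks was 0.059 in K (74 of 81 above 0) and 0.048 in CK mice (73 of 81), and these turned to -0.012 and -0.024 with promoter scaling. Coding promoter peaks had medians of 0.067 and 0.069, with 77.1% and 76.9% above 0. The lowest p in both comparisons was at Rpl32, a 60S protein (chr6:115807892-115809369). Rpl32 held 30.7, 34.4, 28.4 and 29.5 CPM in WT, 27.1, 27.7, 27.6 and 26.2 in C mice, 36.5, 31.6, 30.9 and 33.1 in K mice, and 32.8, 31.2, 31.0, 34.3 and 31.4 in the 5 CK mice. The C mice lay below all others. Its change was 0.28 ± 0.064 in K against C (adjusted p = 0.014) and 0.24 ± 0.061 in CK against C (adjusted p = 0.018), which did not pass 0.01 in these fits but did in CK against C with a term for Y chromosome signal (0.25, adjusted p = 0.0067). DESeq2 gave Rpl32 adjusted p of 0.0043 (K) and 0.0093 (CK), a block on library numbers gave 0.0066 and 0.0094, and the number term 0.0069 and 0.0063. It did not pass with GC bins (0.021 in K, 0.028 in CK), with promoter scaling (0.037 and 0.054) or, in K against C, with the Y term (0.017). Against WT, the value of Rpl32 was 0.10 ± 0.064 in K and 0.064 ± 0.061 in CK mice, and these comparisons share mice with those above.

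The test for departure from additivity sets the CK change against the C change plus the K change on the log2 scale. It called 0 of 81 member peaks by edgeR and 0 by DESeq2, with 0 at an unadjusted p under 0.05. Of all peaks 0.0107% were called by edgeR. An unadjusted p under 0.05 was found for 3.73% of all peaks and 2.21% of coding promoter peaks. The members' median was 0.021, that of coding promoter peaks 0.015. The lowest p was at the upstream Rps14 peak, with -0.14 ± 0.083 and an interval from -0.31 to 0.034 (adjusted p = 1.00).

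Few promoters of other genes of the pathway passed the same threshold, where 0.160%, 1.48% and 6.84% of all peaks were called in C, K and CK against WT and 8.90%, 20.6% and 28.9% had an unadjusted p under 0.05. Of 81 promoter peaks of 78 mitochondrial ribosomal protein genes, 0 were called against WT in any genotype by edgeR, with 2, 3 and 4 at an unadjusted p under 0.05 in C, K and CK, and their CK median was 0.0040. Of 46 peaks of 44 ribosome biogenesis genes (nucleolar proteins, RNA polymerase I subunits and processing factors) 0 were called, with 1, 2 and 5 at an unadjusted p under 0.05 and a CK median of 0.039. Of 28 peaks of 25 further genes with TOP mRNAs, such as elongation factors, 0 were called, with 1, 2 and 5 at an unadjusted p under 0.05 and a CK median of 0.020. Of 23 peaks of 20 regulators, 1 (4.35%, below the share of all peaks) rose in CK against WT, that of Tsc2, an inhibitor of mTORC1 signaling (chr17:24632180-24633219, 0.29 ± 0.065, adjusted p = 0.0034). The promoter of Yy1, a zinc finger factor that binds many ribosomal protein promoters (chr12:108792119-108795336), was the 1 of the 23 that rose in CK against C (0.34 ± 0.075, adjusted p = 0.0081), where 1.68% of all peaks were called. The Tsc2 and Yy1 calls are from the main fit, and their values in the alternative fits are not reported here.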

How the data were processed

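GC B cells of 17 mice were profiled by ATAC-seq. The authors ran the nf-core ATAC-seq pipeline (version 1.2.1) against mm10, built 1 consensus peak set and counted read pairs per peak with featureCounts (version 2.0.1), and the deposited values are raw fragment counts over 65483 peaks. A peak set built from all libraries together favors regions open in any of them. Counts were tested here with edgeR 4.0.16 (R 4.3.3, TMM factors, quasi-likelihood test, all 17 libraries in 1 fit). A filter of at least 10 counts summed over libraries removed 0 peaks. Peaks were called at an adjusted p under 0.01, with Benjamini-Hochberg adjustment over all peaks. Log2 CPM used a prior count of 2. DESeq2 1.42.0, other scaling, GC content bins (20), a Y signal term and leaving out each mouse were alternatives. The test was tried on simulated data first. Promoters came from GENCODE M21 and sequences from RefSeq. Totals of 17483706 to 21857738 fragments gave a median SE of 0.055 to 0.058 (log2) at member peaks for comparisons of 2 genotypes. Errors rest on the spread between mice.

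Members and lists were chosen with earlier results of these data known. Named were called member peaks, the 3 with the lowest p in each direction in C, K and CK against WT and CK against K, the 5 highest and 5 lowest levels, members without a peak or with several, those sharing a promoter, the stalk proteins and Rpsa, X-linked members, symbols ending in l, and Rpl5, Rpl11, Rps6, Rps19, Rpl22 and Rps14. Some members that this rule names are not reported here by name, but they stay in all counts and medians. Rpl32 in the comparisons against C was described after its values were seen. Library numbers were checked as pairs: the same-number correlations of deviations were 0.14 to 0.22 between WT and C, but ran from -0.093 to 0.21 over the other genotype pairs, so numbers were not taken as pairs.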

Additional observations from a re-analysis of the deposited data

Results flagged for a closer look

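Of 68 groups of 4 or 5 mice tested for 1 mouse standing far from the rest (Dixon's test, which chance alone flags in about 1 in 20 groups), 4 were flagged. Rpl15 was low in CK mouse 3 at 50.31 CPM, where the nearest CK mouse held 54.97. Rpl39 was high in C mouse 2 at 34.06 CPM, with the nearest at 31.34. Rps29 was low in WT mouse 3 at 78.22 CPM, with the nearest at 80.29. The mean log2 CPM of the members minus that of coding promoters was high in WT mouse 2 at 1.102, with the nearest at 1.075.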

How the results depend on the processing

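The count of member peaks called in CK against WT was 1 and became 2 with DESeq2, 2 with the replicate block on library numbers, 2 with promoters taken as 5 kb, 3 with scaling factors from coding promoters, 3 with a term for libraries numbered 1 and 2 and 4 at an adjusted p under 0.05. With GC content bins it stayed at 1, but that call was Rpl13a (-0.17) and not the upstream Rps14 peak. It became 0 in the fit of the compared genotypes alone, with a minimum fold of 1.5, with unshared promoters only, with main promoters only, and within libraries numbered 1 and 2 or 3 to 5. In CK against C the count of 0 became 1 with DESeq2, 1 with the replicate block, 1 with the Y signal term, 2 with the number term and 2 at an adjusted p under 0.05, and in K against C it became 1 with DESeq2, 1 with the block, 1 with the number term and 1 at 0.05. In K against WT it became 1 at 0.05 and 1 at 5 kb, where 129 peaks were members. At 0.05, 10082 of all 65483 peaks were called in CK against WT and 3526 in K against WT. In CK against C 4377 were called, and in K against C 2371. For the alternative fits the share of all peaks called is not reported here. With promoter scaling the medians turned to -0.0244 (CK against C) and -0.0119 (K against C). Leaving out each mouse gave counts of 0 to 1 in CK against WT (0 without WT mouse 1, 3 or 4 or CK mouse 1, 2, 4 or 5) and 0 elsewhere, and medians from -0.0431 to -0.00557 (C), 0.0149 to 0.0663 (K) and 0.0059 to 0.0569 (CK) against WT. The block changed no other call, and it kept the C against WT median at -0.0219. Its calls in CK against WT were the upstream Rps14 peak (edgeR, adjusted p = 0.0087) and a further peak that is not named here. The upstream Rpl3 peak (adjusted p = 0.0102) and Rpl23 (adjusted p = 0.0114) did not pass with the block. The settings on promoter scaling, main promoters and library numbers were added after seeing the data, and the causes of these shifts were not tested. With intervals of about 0.1 on the log2 scale either way, smaller changes at single promoters were not detectable with this depth and spread between mice. The threshold of 0.01 over all peaks also left larger values uncalled. In CK against WT no main peak was called in the main fit, although their changes ran from -0.168 to 0.189.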
